A study of Homo sapiens with 6 samples.

Results

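Chromosome 19 carries the largest collection of zinc finger genes in the human genome, and 234 of the 28675 genes in the deposited count table belong to it by 3 criteria. A gene was taken when the table called it protein coding, placed it on chromosome 19 and gave it a symbol of ZNF followed directly by a digit. All 6 RNA-seq libraries came from MDA-MB-231 cells, a human cell line derived from a triple-negative breast cancer, which lacks the estrogen and progesterone receptors and HER2 amplification. A no-load control gave 3 of the libraries, and LARP6 overexpression the other 3. LARP6 is a La-related protein that binds RNA. The labels name neither the vector nor the time after its introduction. They also do not say if the replicates were grown separately, so every p-value reflects only how much these libraries varied, possibly for technical reasons. The comparison asks which RNA levels differ when LARP6 is overexpressed, within a study of the RNAs that LARP6 binds and of their splicing in this cancer.

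Most of these genes encode KRAB zinc finger proteins. Each finger is a short fold in which a pair of cysteines and a pair of histidines hold a zinc ion, and a row of fingers reads a DNA sequence. The KRAB domain at the other end of the protein recruits the corepressor TRIM28, which brings the histone methyltransferase SETDB1 and heterochromatin proteins, and many members of the family silence transposable elements. The genes arose by tandem duplication and sit in clusters of near relatives. A translated coding sequence in GENCODE release 29 was found for 233 of the 234 genes. A pattern of the KRAB A box was found in 197 of them and not in 36. The pattern of a finger occurred a median of 12 times per protein, from 0 to 32. A pattern is a match of letters and can miss a diverged domain.

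The coding DNA of a finger shows how these genes differ in base composition, a property set beside the fold changes further on. A finger with the linker that follows it is printed from the GENCODE transcripts of ZNF700, ZNF83 and ZNF493, which rose in the LARP6 libraries. In each of these genes it is the first finger followed by the exact linker TGEKP (amino acid letters). ZNF358, which fell, has no finger that meets this rule, so its first finger of the same spacing is shown. Capitals mark the codons of the zinc-binding cysteines and histidines, and each stretch is 27 codons long.
ZNF700: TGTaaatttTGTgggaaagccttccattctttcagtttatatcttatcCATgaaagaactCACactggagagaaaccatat
ZNF83: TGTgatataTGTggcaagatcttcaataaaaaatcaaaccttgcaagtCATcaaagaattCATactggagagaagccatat
ZNF493: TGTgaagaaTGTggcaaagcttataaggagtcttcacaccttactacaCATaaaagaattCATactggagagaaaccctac
ZNF358: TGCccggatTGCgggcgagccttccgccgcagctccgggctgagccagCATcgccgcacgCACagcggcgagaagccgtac
The finger unit of ZNF700 had a GC content of 34.6%, that of ZNF83 33.3% and that of ZNF493 38.3%, against 72.8% in ZNF358. Whole coding sequences showed a like contrast, with 41.3% GC in ZNF700, 38.0% in ZNF83, 36.1% in ZNF493 and 67.8% in ZNF358. Over the tested genes of the family, transcripts with the KRAB pattern had a median GC content of 42.1% and those without it 59.2%.

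LARP6 was at 42.7 ± 1.85 CPM (CPM, counts scaled to library size with TMM factors; SD, n = 3) in the controls and 2108 ± 104 CPM (SD, n = 3) in the LARP6 libraries, and each library matched its label. Total counts ran from 29409101 to 33387050 per library. All 5 markers expected in this line (VIM, CD44, CAV1, EGFR and AXL) had at least 10.9 FPKM (fragments scaled by gene length and library size, as deposited), with a summed level of 5197 to 5293 CPM in controls and 5415 to 5531 CPM in LARP6 libraries. ESR1 was at 0 CPM in the controls and 0.0110 CPM in the LARP6 libraries on average, and PGR at 0.149 and 0.128 CPM. The other genes expected to be low, GATA3 and CDH1, had a mean of 2.81 and 1.10 FPKM. Of 6 markers of leukocytes, endothelium and hepatocytes, 5 were in the table and none reached 1 FPKM.

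Zinc finger mRNAs of chromosome 19 were scarce. The median gene had 0.978 FPKM, and 117 genes were under 1 FPKM, 102 from 1 to 5 FPKM and 12 at 5 FPKM or more, while 3 had no FPKM value. Together the 234 genes took 0.191% to 0.200% of all counts in the controls and 0.203% to 0.213% in the LARP6 libraries. The count filter kept 220 genes for testing, and 219 of these passed it in all 6 libraries, the 1 other in the LARP6 libraries and not in all controls. The 14 genes left untested, among them ZNF229, ZNF730, ZNF676 and ZNF154, had 1 to 61 counts over all libraries. Fewer cells expressing a gene and less RNA per cell cannot be told apart in bulk libraries.

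Of the 5 most abundant of these mRNAs, 4 came from genes without a KRAB pattern. ZNF428, with 1 finger pattern, was at 24.96, 25.13 and 26.28 FPKM in controls 1 to 3 and 25.3, 26.3 and 27.2 FPKM in the LARP6 libraries, so the groups overlapped. ZNF114, which has the KRAB pattern and 3 finger patterns, followed with 15.04, 14.89 and 15.58 FPKM in controls and 16.9, 16.6 and 16.8 FPKM in LARP6 libraries. All ZNF114 values were higher in the LARP6 libraries, but its log2 fold change of 0.12 ± 0.04 (SE) did not pass the test (edgeR adjusted p = 0.0986). ZNF787 had 13.2 ± 0.930 and 12.9 ± 0.476 FPKM, ZNF524 12.9 ± 0.0757 and 12.04 ± 0.563 FPKM, and ZNF358 13.2 ± 0.681 and 11.7 ± 0.673 FPKM in control and LARP6 libraries (SD, n = 3 each). Within the controls, the values of ZNF787, ZNF524 and ZNF358 overlapped between genes. All ZNF358 values were lower in the LARP6 libraries than in the controls. ZNF428 and ZNF524 each overlap another gene on the opposite strand, SRRM5 and FIZ1, and although the library kit keeps strand, the setting used in counting is unknown here.

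With LARP6 overexpressed, 8 of the 220 tested zinc finger genes rose and 1 fell, and all changes were under 2-fold. The 8 that rose were ZNF700, ZNF83, ZNF440, ZNF493, ZNF432, ZNF431, ZNF44 and ZNF224, and ZNF358 was the one that fell. This was 3.64% of tested members higher and 0.455% lower, beside 2.43% higher and 3.60% lower among all 16226 tested genes (edgeR quasi-likelihood test, adjusted p below 0.05), so the share that rose was near the background. In either direction 6.03% of all tested genes were called. Scaled by library size only, 14 members were called higher and 0 lower, with 687 higher and 303 lower among all tested genes in place of 395 and 584. Of the 211 not called, 162 had a fold change above 0. The log2 fold change was above 0 in 170 of 220 members, 77.3%, against 51.2% of all tested genes. The median was 0.09 (log2), a change of 6.73%, against 0.00 over all tested genes. The lowest LARP6 library exceeded the highest control in 36 members, 16.4%, against 10.6% of all tested genes. The reverse held in 5 members (ZNF358, ZNF574, ZNF524, ZNF580 and ZNF304), 2.27%, against 11.7%.

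ZNF700, with 18 finger patterns and the KRAB pattern, had the smallest p-value. It lies on chromosome 19 from 11925068 to 11950773 on the plus strand (GRCh38, GENCODE release 29). Its level was 16.2, 15.2 and 16.6 CPM in controls 1 to 3 and 21.6, 21.4 and 18.8 CPM in LARP6 libraries 1 to 3. The groups did not overlap, and LARP6 library 3 was nearest to the controls. The log2 fold change was 0.36 ± 0.07 (SE; adjusted p = 0.000163 by edgeR). Of its 150-base windows, 7.73% also occur in a transcript of another annotated gene, AC008770.2, which overlaps it on the same strand, so a small part of its reads could be assigned to either.

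ZNF83 has 14 finger patterns and no KRAB pattern in the reference protein. It was at 10.2, 11.1 and 9.996 CPM in controls and 13.4, 15.9 and 11.0 CPM in LARP6 libraries. LARP6 library 3 lay within the control range, and library 2 was the highest. The log2 fold change of 0.37 ± 0.09 (SE; adjusted p = 0.00636 by edgeR) lost its call without LARP6 library 2.

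ZNF440 and ZNF44 lie near ZNF700 in the same stretch of the chromosome. ZNF440 (11814284 to 11835201, plus strand) had 10.5, 11.4 and 11.8 CPM in controls and 14.4, 13.7 and 13.8 CPM in LARP6 libraries, which is 0.31 ± 0.08 on the log2 scale (SE; adjusted p = 0.0106 by edgeR). ZNF44 (12224686 to 12294887, minus strand) had 5.94, 5.86 and 6.49 CPM in controls and 7.67, 7.92 and 7.76 CPM in LARP6 libraries, which is 0.35 ± 0.11 on the log2 scale (SE; adjusted p = 0.0362 by edgeR). The groups overlapped for neither gene, and neither gene shares an exact 150-base window with another gene.

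In the block near the centromere, ZNF431 and ZNF493 rose. ZNF431 was at 10.4, 9.83 and 9.08 CPM in controls and 11.7, 12.3 and 12.3 CPM in LARP6 libraries (log2 fold change 0.31 ± 0.09, SE, edgeR adjusted p = 0.0195). ZNF493 was scarcer, at 2.36, 2.24 and 2.16 CPM in controls and 3.32, 3.35 and 3.47 CPM in LARP6 libraries, and had the largest change among tested members (0.58 ± 0.17, SE, edgeR adjusted p = 0.0182). Both were above every control in each LARP6 library. ZNF432, at 8.50 ± 0.622 and 10.7 ± 0.617 CPM, and ZNF224, a repressor of the aldolase A gene, at 8.63 ± 0.514 and 10.6 ± 0.252 CPM (control and LARP6, SD, n = 3 each), did not overlap between groups either. Their log2 fold changes were 0.33 ± 0.10 and 0.30 ± 0.10 (SE, edgeR adjusted p = 0.0183 and 0.0428).

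ZNF358, which has 9 finger patterns, no KRAB pattern and a transcript GC content of 69.1%, went the other way. It was at 32.8, 29.8 and 31.7 CPM in controls and 25.6, 28.6 and 27.6 CPM in LARP6 libraries, with no overlap. Its log2 fold change was -0.20 ± 0.06 (SE; adjusted p = 0.0173 by edgeR). Of its windows, 15.1% also occur in AC008878.1, which overlaps it on the same strand. Of the other called genes, ZNF493 and ZNF432 overlap another protein-coding gene on the same strand (AC010615.4 and ZNF841), and ZNF224 overlaps an antisense gene, AC021092.1. ZNF83 overlaps noncoding genes on its strand and a pseudogene on the other, and ZNF431 a pseudogene on each strand. ZNF44 overlaps pseudogenes on the opposite strand, and ZNF432 also overlaps noncoding genes on both strands.

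**Figure D1:**
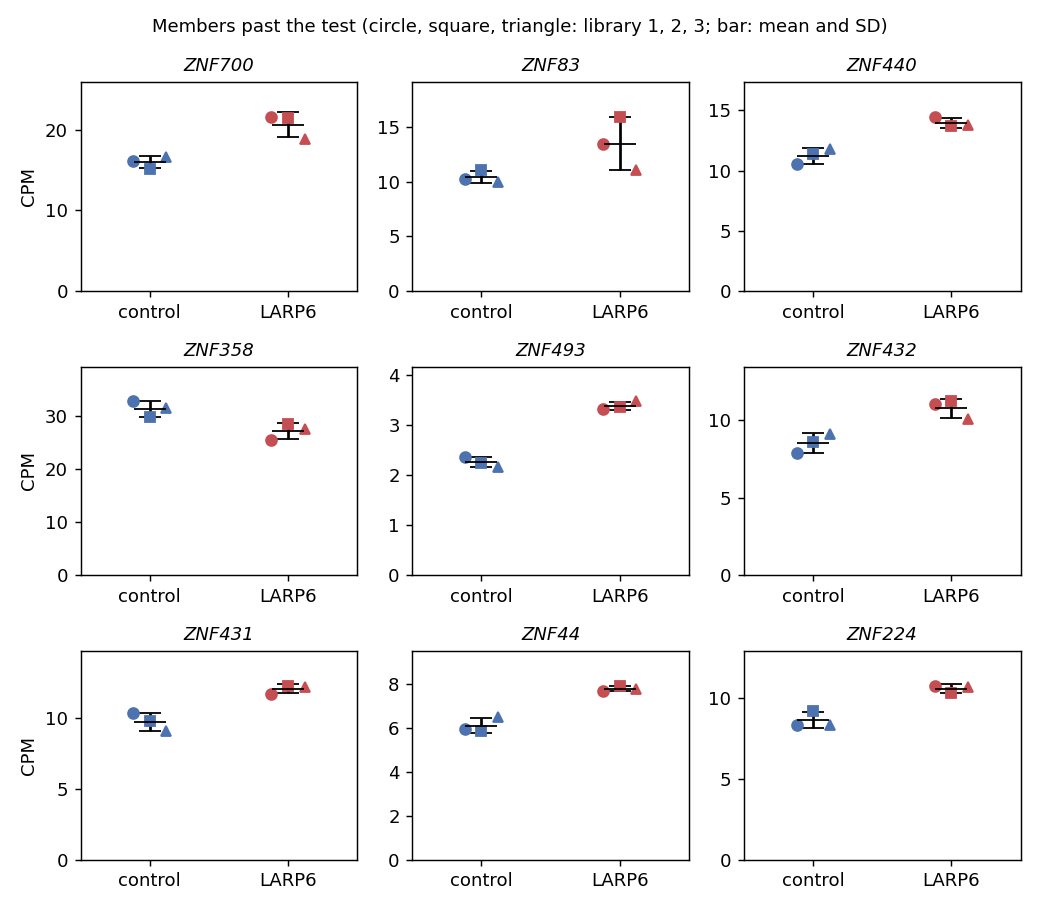
Level in CPM of the 9 genes past the test in each library, with circles, squares and triangles for libraries 1, 2 and 3, blue for control and red for LARP6, and bars for the mean and SD. ZNF83 is the one gene of the 9 whose groups overlap, with LARP6 library 3 at 11.0 CPM and control library 2 at 11.1 CPM.

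The calls on single genes were sensitive to the libraries and to the test used. ZNF700 was called in each fit that left out 1 library. The number of members higher was 4 without LARP6 library 1 (ZNF431, ZNF700, ZNF780A and ZNF83) and 3 without LARP6 library 2 (ZNF440, ZNF649 and ZNF700), while the share of all tested genes higher was 1.07% and 1.06% in these fits. DESeq2 run on the 220 members and all other genes that edgeR tested called ZNF700 and ZNF440. Among all those genes it called 175 higher and 335 lower, where edgeR called 395 and 584. ZNF358 lost its call without control library 1 and without LARP6 library 1.

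Just outside the threshold stood ZNF814, ZNF780B and ZNF780A. ZNF814 was at 2.30, 2.10 and 2.07 CPM in controls and 3.02, 2.66 and 3.59 CPM in LARP6 libraries (log2 fold change 0.52 ± 0.17, SE, edgeR adjusted p = 0.0531), with no overlap. The neighbours ZNF780B and ZNF780A had 0.31 ± 0.11 and 0.34 ± 0.12 (log2, SE, edgeR adjusted p = 0.0590 and 0.0650). ZNF780B went from 6.92 ± 0.609 to 8.60 ± 0.969 CPM with overlapping groups, and ZNF780A from 5.35 ± 0.316 to 6.76 ± 0.841 CPM without overlap (SD, n = 3 each). ZNF780B and ZNF780A both overlap the gene AC005614.2 on the same strand. ZNF814 overlaps the protein-coding gene AC010326.2 on the same strand, and ZNF587 and AC010522.1 on the opposite strand.

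Of 8 members chosen for a known role, ZNF224 passed the test and the others did not. ZNF91, a repressor of SVA retrotransposons, was at 8.76, 5.999 and 6.64 CPM in controls and 8.41, 8.68 and 8.32 CPM in LARP6 libraries. Control library 1 exceeded all LARP6 libraries, and the log2 fold change was 0.25 ± 0.11 (SE; adjusted p = 0.173 by edgeR). Without control library 1 it was 0.42 and ZNF91 passed the test (edgeR adjusted p = 0.0208). The fold change was 0.14 without control library 2 and 0.20 without control library 3 (log2, edgeR adjusted p = 0.594 and 0.409). No other alternative called ZNF91. ZNF93, which silences LINE-1 elements, had 11.8 ± 1.45 and 11.8 ± 0.494 CPM (SD, n = 3 each) and a log2 fold change of 0.00 ± 0.09 (SE). ZNF274, which binds the ends of other zinc finger genes and recruits SETDB1, had 33.9 ± 2.29 and 35.3 ± 2.53 CPM. ZNF350, also known as ZBRK1 and a partner of BRCA1, had 6.40 ± 0.595 and 6.62 ± 0.461 CPM, and the imprinted gene ZNF331 had 11.4 ± 0.903 and 12.6 ± 1.03 CPM (SD, n = 3 each). The groups of these 4 overlapped. ZNF382 was at 1.56 ± 0.179 and 1.88 ± 0.0235 CPM and above its controls in each LARP6 library, and ZNF304 at 10.6 ± 0.408 and 9.61 ± 0.769 CPM and below its controls (SD, n = 3 each; edgeR adjusted p = 0.517 and 0.411).

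The summed level was higher in the LARP6 libraries for genes with the KRAB pattern and not for those without it. The 197 genes with the pattern summed to 1416, 1411 and 1378 CPM in controls 1 to 3 and to 1524, 1511 and 1460 CPM in LARP6 libraries 1 to 3. All LARP6 values were above all controls, with means of 1402 ± 20.6 and 1498 ± 33.5 CPM (SD, n = 3 each). The 36 genes without the pattern summed to 573 ± 16.3 and 573 ± 4.21 CPM (SD, n = 3 each), with overlapping groups. Of 183 tested genes with the pattern, 7 rose (3.83%, beside 2.43% of all tested genes) and 0 fell (beside 3.60%). Of the 183, 145 had a fold change above 0 and the median was 0.11 (log2). At an unadjusted edgeR p below 0.05, 30 of them were higher and 0 lower, beside 8.75% higher and 10.3% lower among all tested genes, and DESeq2 called 0 members lower. Of 36 without the pattern, 1 rose and 1 fell (2.78% each), 24 were above 0 and the median was 0.02. The shares that rose, 3.83% and 2.78%, were near the 2.43% of all tested genes. The difference between these classes was not tested. They also differed in level, with a median of 0.960 FPKM over tested genes with the pattern and 2.20 FPKM without it. By number of finger patterns, the median was 0.05 over 56 tested genes with 0 to 9, 0.10 over 89 with 10 to 14 and 0.12 over 74 with 15 or more. Zinc finger genes of other chromosomes gave a similar split, with a median of 0.09 over 92 tested genes with the KRAB pattern and 0.04 over 137 without it.

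**Figure D2:**
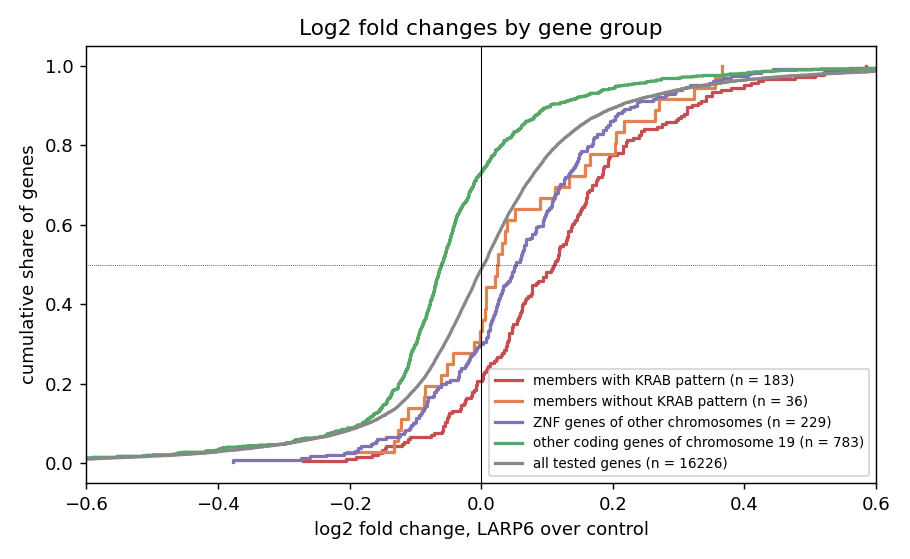
Cumulative share of tested genes against the log2 fold change of LARP6 over control libraries for 5 gene groups, with the far tails left out. The curve of chromosome 19 zinc finger genes with the KRAB pattern lies farthest to the right (median 0.11) and that of the other coding genes of chromosome 19 to the left of all tested genes (median -0.06).

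Of 783 other protein-coding genes tested on chromosome 19, 4 rose, 94 fell and 685 were not called. A fold change above 0 was found in 26.9% of them, and the median was -0.06 (log2), or -0.02 with offsets for GC and length, where all tested genes had -0.01. Their median transcript GC content was 60.6%, against 42.4% in the zinc finger genes and 48.9% over all tested genes. A further 16 tested genes of the chromosome carry 3 or more finger patterns under another name. None of these was called by edgeR, and 2 were higher and 1 lower at an unadjusted p below 0.05, near the 8.75% and 10.3% of all tested genes, with a median of 0.00 (log2) and a median GC content of 56.7%. Among 229 tested ZNF genes on other chromosomes, 6 rose (2.62%) and 1 fell (0.437%) with a median of 0.05. The share that rose was near the 2.43% of all tested genes.

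Fold changes followed GC content in the family and outside it. Of 57 tested members with a transcript GC content under 40%, 47 were above 0 and the median was 0.16 (log2). In the 2254 other tested genes of that range, 75.2% were above 0 and the median was 0.06. From 40% to 45%, the median was 0.09 in 97 members and 0.04 in 3244 other genes, and from 45% to 50% it was 0.10 in 34 members and 0.01 in 2855 other genes. From 50% to 55% it was 0.06 in 9 members and -0.02 in 2580 other genes. From 55% to 60% the 6 members, of which 2 were above 0, had -0.05 and 2448 other genes -0.04. At 60% or more, all 17 members lacked the KRAB pattern, with a median of -0.01 against -0.06 in 2454 other genes. Of members without the KRAB pattern, the 4 under 40% GC and the 9 from 40% to 45% were all above 0. When each library's smooth trend on transcript GC content and length was taken out, the median over members was 0.05 against -0.01 over all tested genes, and 65.9% of members were above 0. In that fit 2 members rose, ZNF700 and ZNF83, and 0 fell, beside 1.05% higher and 2.57% lower among all tested genes. Among the genes that lost their call, the fold changes (log2) were 0.26 for ZNF440, 0.47 for ZNF493, 0.26 for ZNF432, 0.20 for ZNF431, 0.31 for ZNF44, 0.23 for ZNF224 and -0.15 for ZNF358. The medians with and without the KRAB pattern were then 0.05 and 0.04.

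**Figure D3:**
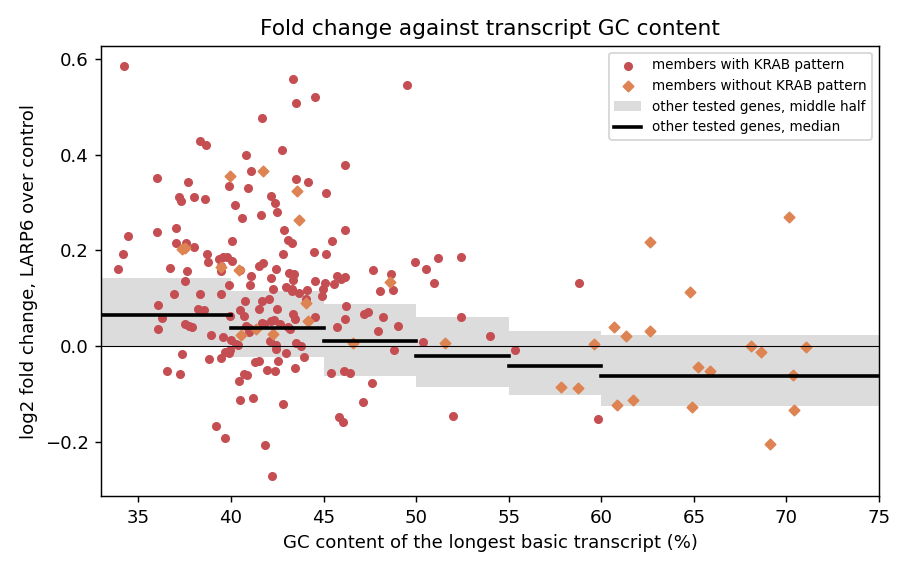
Log2 fold change of each tested member against the GC content in percent of its longest basic transcript, with circles for genes with the KRAB pattern and diamonds for genes without it. Black bars give the median and grey bands the quartiles of all other tested genes in 6 ranges of GC content, with medians from 0.06 under 40% to -0.06 at 60% or more.

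The libraries of a group were not alike in this respect. The members' median deviation from each gene's mean over the 6 libraries was -0.01, -0.03 and -0.10 (log2) in controls 1 to 3 and 0.07, 0.07 and -0.01 in LARP6 libraries 1 to 3. Control library 3 was the lowest, and LARP6 library 3 stood just above control library 1 and well below the other LARP6 libraries. Other genes with a GC content under 40% gave -0.01, -0.00 and -0.08 in the controls and 0.05, 0.05 and -0.00 in the LARP6 libraries, with the same libraries apart. Without LARP6 library 3 the members' median was 0.11, and without control library 3 it was 0.08.

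**Figure D4:**
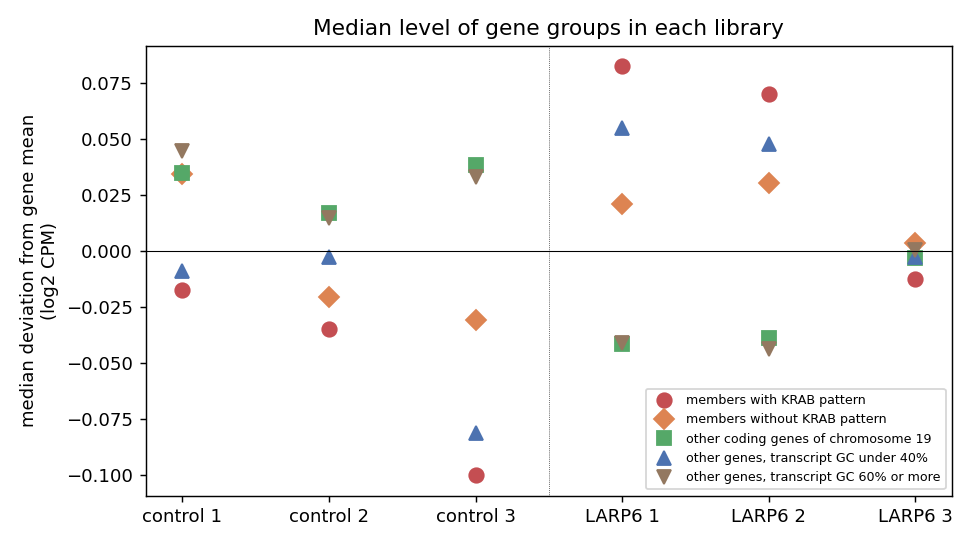
Median deviation in log2 CPM from each gene's mean over the 6 libraries, per library, for members with and without the KRAB pattern, other coding genes of chromosome 19, and other genes with a transcript GC content under 40% or of 60% or more. In LARP6 library 3 all 5 groups lie close to 0, from -0.01 to 0.00.

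Along the chromosome, the members fall into 15 positional groups when neighbours more than 1 Mb apart are separated. The 24 tested genes from 36182060 to 37817300 were the most uniform of the large groups, with 23 above 0, a median of 0.15 (log2) and none called by edgeR or by DESeq2. At an unadjusted edgeR p below 0.05, 4 were higher and 0 lower, beside 8.75% and 10.3% of all tested genes. In 8 of these 24, 33.3%, the LARP6 libraries lay above all controls, and in 0 below, beside 10.6% and 11.7% of all tested genes. The block from 19668796 to 24129961, with 27 tested genes and a median GC content of 37.5%, had a median of 0.16, with ZNF431 and ZNF493 called. The called genes were 7.41% of its tested genes, beside 2.43% of all tested genes called higher. The 3 genes from 39984134 to 40090938 (ZNF546, ZNF780B and ZNF780A) had the highest median, 0.31, with 0 called. The block from 55476332 to 58481230, the largest with 55 tested genes, had a median of 0.05, with 36 above 0 and 0 called. The pair of genes from 42068477 to 42228201, ZNF574 and ZNF526, had a GC content of 59.4% and a median of -0.10. The difference between positional groups was not tested.

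**Figure D5:**
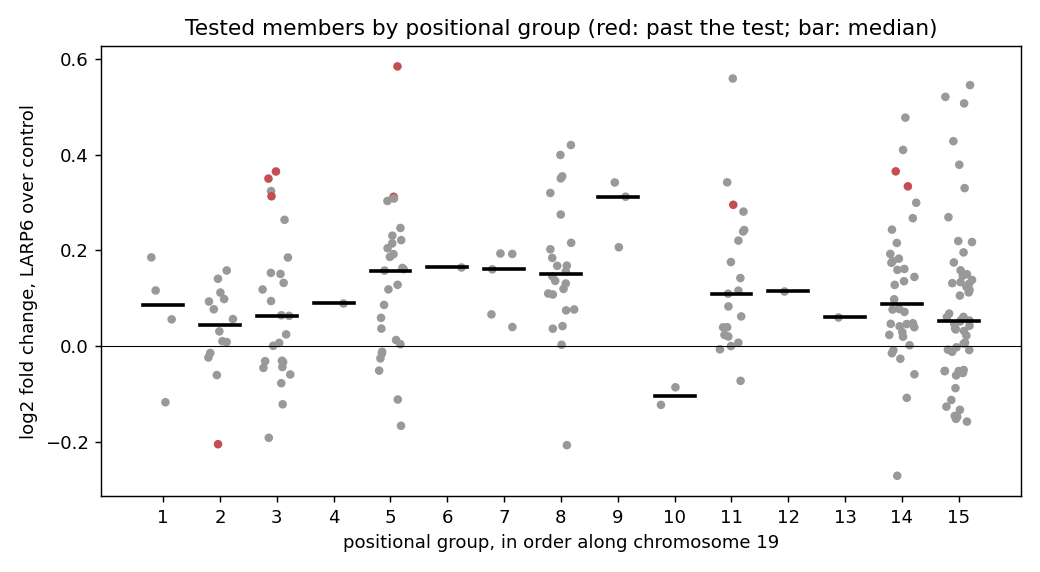
Log2 fold change of LARP6 over control for each tested member, in 15 positional groups in order along chromosome 19, with red points for genes past the test and bars for group medians. Medians lie above 0 in every group except group 10, which holds ZNF574 and ZNF526 and lies at -0.10.

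The block from 11483427 to 12640098 held 3 of the 8 genes that rose, ZNF440, ZNF700 and ZNF44, among 25 tested genes with a median of 0.06. That was 12% of its tested genes, beside 2.43% of all tested genes called higher. The block was picked with these calls known, so this share does not test for clustering. Of the 25, 16 were above 0 and 9 below. The bases before the start of the 3 genes are shown because they share a stretch of the chromosome and a direction of change. They are RefSeq sequences on GRCh38.p14, with capitals for matches to any of 6 motifs on either strand. Motifs were searched in the 250 bases before the RefSeq start. That start lies inside the GENCODE gene for ZNF700 and ZNF44, so the last 39 and 4 bases of their windows are not printed.
ZNF440: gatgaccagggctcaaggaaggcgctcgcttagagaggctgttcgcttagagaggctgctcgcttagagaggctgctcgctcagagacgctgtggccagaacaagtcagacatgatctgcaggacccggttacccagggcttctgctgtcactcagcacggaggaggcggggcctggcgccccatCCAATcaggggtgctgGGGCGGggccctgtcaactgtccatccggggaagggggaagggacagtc
ZNF700: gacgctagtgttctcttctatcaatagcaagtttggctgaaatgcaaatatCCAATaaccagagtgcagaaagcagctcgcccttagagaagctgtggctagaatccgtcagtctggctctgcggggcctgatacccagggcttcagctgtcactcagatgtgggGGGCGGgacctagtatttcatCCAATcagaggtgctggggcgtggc
ZNF44: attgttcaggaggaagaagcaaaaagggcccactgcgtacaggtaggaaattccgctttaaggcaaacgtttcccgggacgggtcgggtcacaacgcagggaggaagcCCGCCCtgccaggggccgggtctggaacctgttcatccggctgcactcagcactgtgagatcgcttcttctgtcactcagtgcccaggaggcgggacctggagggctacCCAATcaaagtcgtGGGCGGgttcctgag
The ZNF440 sequence lies at chr19:11814023-11814272 (plus strand), the ZNF700 sequence at chr19:11924857-11925067 (plus strand) and the ZNF44 sequence at chr19:12294888-12295133 (minus strand). Each of these promoters held a GC box, searched as GGGCGG, which was found in 64.9% of the 208 members with a promoter in the table and in 42.3% of all 27305 promoters of the same length. Each also held the box named CCAAT for its letters, found in 51.0% of member promoters and 33.04% of all. ZNF700 alone of the 3 held the core of ETS factor sites, searched as CCGGAA, in the bases not printed. This core was in 39.4% of member promoters and 14.8% of all. None of the 3 held a TATA box, searched as TATAAA, which was in 1.92% of member promoters and 11.1% of all. The other motifs were a palindromic NRF1 motif and a palindrome with a CpG-rich centre, and no match overlapped another in these 3 sequences. The NRF1 motif was in 1.44% of member promoters and 1.13% of all, and the palindrome in 0.481% and 0.410%. Member promoters had a median GC content of 59.6% and a median of 16 CpG, against 58% and 11 in all promoters. A match is a description of letters, not a binding site.

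Of 30 tested genes in a list of proteins through which KRAB domains act, SENP7 rose, TRIM28 fell and 28 were not called. The shares, 3.33% in each direction, were near the 2.43% higher and 3.60% lower of all tested genes, with a median log2 fold change of 0.02. TRIM28, the corepressor itself, was at 441, 426 and 432 CPM in controls and 398, 393 and 416 CPM in LARP6 libraries. All LARP6 values were below the controls, and the log2 fold change was -0.11 ± 0.03 (SE; adjusted p = 0.00570 by edgeR), a call lost when control library 1 or either of LARP6 libraries 1 and 2 was left out. TRIM28 also lies on chromosome 19, with a transcript GC content of 63.7%, and did not pass with offsets for GC and length (log2 fold change -0.06). SENP7, a SUMO protease, rose from 3.38 ± 0.115 to 4.92 ± 0.205 CPM (SD, n = 3 each), or 0.54 ± 0.14 on the log2 scale (SE; adjusted p = 0.00721 by edgeR), with a GC content of 35.2%. It missed the threshold with these offsets (log2 fold change 0.44, edgeR adjusted p = 0.0525) and without LARP6 library 2 (0.51, edgeR adjusted p = 0.0531). SETDB1 had 21.8 ± 1.40 and 22.3 ± 1.03 CPM (SD, n = 3 each), a difference within its spread.

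Near-identical sequence limits what gene-level counts can say about this family. Of the 234 genes, 173 share no exact 150-base window, the read length, with a transcript of another gene, and 16 share 25% or more. Windows came from the longest basic transcript, and matches with differing bases were not counted, so reads could still be shared. These 16 include read-through genes such as ZNF625-ZNF20 and ZNF559-ZNF177, most of whose windows also occur in a gene they join. Of the 166 tested members sharing under 1% of windows, 134 were above 0 and the median was 0.10 (log2). Of the 14 tested members sharing 25% or more, 8 were above 0, 0 were called and the median was 0.04.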

How the data were processed

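Total RNA of MDA-MB-231 cells was made into 6 libraries with a stranded mRNA kit, per the labels' protocols, and titles gave 3 control and 3 LARP6 libraries. The authors deposited read counts per gene and FPKM values per gene. The submitters' processing notes list HISAT2, DESeq2 and GRCh38. Which counter and annotation release were used, and with what strand setting, is not given in the sources used here. FPKM as deposited is scaled to library size and gene length.

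Counts of all 28675 genes were fitted with edgeR 4.0.16 in R 4.3.3 (expression filter, TMM scaling, robust quasi-likelihood test, no covariate), and p-values were adjusted by Benjamini-Hochberg over the 16226 genes tested, with a threshold of 0.05. CPM used TMM-scaled library sizes, and log2 CPM a prior count of 2. The common dispersion corresponds to a coefficient of variation of 3.23%. Within groups, the chi-square per gene between libraries was 2.06 to 3.62, above sampling noise, and each library was treated as 1 replicate. That spread does not tell if the replicates were grown separately. Coordinates, transcript length, GC content and translated coding sequences came from GENCODE release 29, which matched 97.0% of gene IDs and all 234 zinc finger genes. The finger pattern was 2 cysteines and 2 histidines at the family's spacing, and the KRAB pattern was searched in the first 200 residues.

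The genes and lists were chosen with earlier results of these data known. Named genes were the members past the test (at most 10 per direction), the 5 with the highest FPKM, the 3 nearest to the threshold, 8 of known function, and TRIM28, SETDB1 and called genes of the cofactor list. Alternatives were other scalings and filters, DESeq2 1.42.0 with and without its independent filter, limma 3.58.1 with voom or on log2 FPKM with a pseudocount of 1 or 0.1, a replicate block, GC and length offsets (mgcv 1.9.3), a threshold of 0.01 and leaving out each library. The edgeR script was tested on simulated counts. Splicing was not analysed here.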

Additional observations from a re-analysis of the deposited data

How the results depend on the processing

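The members' median log2 fold change stayed above 0 under every alternative run, while the calls moved. Against 8 members higher, 1 lower and a median of 0.09, scaling by library size only gave 14 higher and 0 lower (all tested genes went from 395 higher and 584 lower to 687 and 303), and a threshold of 0.01 gave 2 higher and 0 lower. DESeq2 with its own filter gave 1 higher and 0 lower, but only 31 members, 2 of the 9 called by edgeR among them, received an adjusted p. On the genes edgeR tested, without that filter, a setting chosen after seeing the data, DESeq2 tested all 220 and gave 2 higher and 0 lower. GC and length offsets gave 2 higher and 0 lower with a median of 0.0487, and adding the replicate block to those offsets gave 2, 0 and 0.0491. On log2 FPKM, limma gave 0 higher and 0 lower with pseudocounts of 1 and 0.1 and without a filter, with medians of 0.0493, 0.0991 and 0.0465. These fits called 29, 34 and 2 genes higher and 44, 51 and 2 lower among all. Leaving out 1 library gave 3 to 9 higher, 0 to 1 lower and medians of 0.0717 to 0.115. Among all tested genes these fits called 175 to 398 higher and 281 to 642 lower. The threshold of 0.01 left 148 higher and 295 lower among all. DESeq2 called 164 and 410 with its filter and 175 and 335 without it. The offsets gave 170 and 417, or 192 and 531 with the block. The replicate block alone gave 10 higher and 1 lower, with 518 higher and 827 lower among all tested genes. Same-numbered libraries had correlations of 0.03, 0.01 and 0.05 between deviations from their group means, and LARP6 library 2 did not correlate best with its own number, so the numbers were not taken to pair the libraries. The cause of these shifts was not tested.

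Of the named genes, 4 that were not called changed sign. ZNF93 had -0.0498 with GC and length offsets and -0.0474 with the replicate block added, and ranged from -0.0702 to 0.106 when 1 library was left out, with -0.0152 (control 2 out), -0.00194 (LARP6 library 1 out) and -0.0213 (LARP6 library 2 out) between. Leaving out 1 library gave -0.00683 (control 2 out) to 0.122 for ZNF350, with -0.00242 for LARP6 library 1 out, -0.0207 to 0.0668 for SETDB1, and -0.00333 to 0.0505 for ZNF428. At these depths a gene such as ZNF493, with 66 to 110 counts per library, has a standard error of 0.17 on the log2 scale, so changes of the size of the members' median were not detectable for single genes of this level.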
